A study of Mus musculus with 13 samples.

Results

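Villus epithelium of the mouse small intestine was set against Lgr5-positive stem cells on expression arrays, to ask which pathways and gene families differ between the 2 ends of the path from crypt to villus. The comparison used the 3 Villus arrays and the 4 GFP_High arrays, chosen by their titles, 7 of the 13 arrays of the series. All mice were C57BL/6 and carried Lgr5-EGFP-ires-CreERT2, an allele that puts green fluorescent protein and a tamoxifen-inducible Cre under the Lgr5 promoter, and RNA of 3 mice went into each sample according to the design. Their age is not given. The Villus samples stand for the whole epithelium of the villi. GFP_Low cells (3 arrays, used for the estimate of spread and for a few checks) are crypt cells with a dim GFP signal, GFP_High cells are those with the brightest signal, and the other 3 arrays hold hair bulge cells. The reporter is known to be silent in part of the crypts, so GFP_High stands for the stem cells of the crypts that express it. By the methods, villus epithelium was detached with EDTA and EGTA, crypts were further dissociated with trypsin and DNAse, and the RNA of every group, Villus included, was taken after FACS. The labels call only the crypt fractions sorted, and the gate of the Villus cells and their step to single cells are not given in the sources used here, so handling and cell population cannot be told apart. A label field for the Lgr5 level reads high for all 3 Villus samples and low for GFP_High 2, against the titles, and the design speaks of 3 sorts where 4 GFP_High samples are listed.

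The epithelium of the small intestine is renewed from stem cells at the base of the crypts. Their daughters divide a few times, leave the crypt, stop dividing and work on the villus for some days until they are shed at its tip. Most villus cells are enterocytes, with goblet, enteroendocrine and tuft cells among them and lymphocytes lodged between them, while Paneth cells stay beside the stem cells. Digestion, cell division, ribosome, Wnt and DNA methylation genes, for which this path is best known, were left aside here, and lists of other pathways, families and cell types are described.

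Values are intensities, the deposited measure of brightness per probe set, and differences are log2, Villus minus GFP_High, with the standard error of a limma fit. A gene counted as higher or lower at a Benjamini-Hochberg adjusted p under 0.05 over 17097 genes. In Villus 22.6% of genes were higher and 26.3% lower (48.9% in either direction), and the median difference over all genes was 0.02, so the counts of a list are to be read against these shares. An intensity of 7.9, the 95th percentile of olfactory, vomeronasal and taste receptor probe sets, served as the level of unexpressed genes. Of 10365 genes above it on every array of at least 1 group, 3352 were higher and 4269 lower. These shares are larger than those over all genes, and lists made up mainly of expressed genes are to be read against them as well. Folds against a group whose arrays all lay at or under this level are lower bounds and are written with "at least". Arrays of a group correlated at 0.987 to 0.992 among Villus and at 0.987 to 0.994 among GFP_High, against 0.819 to 0.827 between the groups. Over all probe sets the median intensities of the arrays were 8.1, 8.2 and 8.1 in Villus and 8.2, 8.0, 7.9 and 8.1 in GFP_High. Over the 17097 genes tested, the mean of the array medians was 3.71 (log2) in Villus and 4.00 in GFP_High. Equal array medians, as named below, means setting these medians over genes to the same value. That would raise all differences by 0.29, and 65.9% of the calls would then be higher in Villus, against 46.3% as fitted. The direction of a list is therefore given with its count under that scaling where the majority turned. The number of arrays, not a read depth, limits the precision.

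The titles, and not the label field for the Lgr5 level, were borne out by the markers. Lgr5, the receptor whose promoter drives the reporter, had intensities of 6.8, 4.8 and 6.6 in Villus, against 793, 533, 576 and 697 in GFP_High (at least 81.2-fold lower, adjusted p = 9.37e-09). Olfm4, a secreted glycoprotein of crypt base cells, had intensities of 28.7, 100.5 and 96.9 in Villus, against 6924, 5887, 5183 and 6902 in GFP_High (log2 difference -6.56 ± 0.34, adjusted p = 1.17e-09). Alpi, the alkaline phosphatase of the brush border, had intensities of 6804, 7291 and 7127 in Villus, against 12.2, 38.8, 31.6 and 24.1 in GFP_High (log2 difference 8.17 ± 0.33, adjusted p = 9.71e-11). Both stem cell markers were lower and the enterocyte enzyme higher in every Villus array. Cyp3a11 and Krt20 are among the genes given next. Of 30 crypt base genes, Lgr5 and Olfm4 among them, 0 were higher in Villus, 29 were lower and 1 did not pass the test (median log2 difference -4.56), and all 12 enterocyte maturity markers were higher in Villus. The stem cell list comes from studies of such sorts, so its count describes the label and supports nothing else.

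A few arrays stood apart. In GFP_High 3, 22 genes were lower and 14 higher than in each of the other GFP_High arrays by more than 2 on the log2 scale, and in Villus 2, 18 genes were higher by as much than in the other Villus arrays, among them genes of the exocrine pancreas. Amy2a5, pancreatic amylase, had intensities of 4.1, 2779 and 4.1 in Villus, against 4.7, 3.6, 27.7 and 5.2 in GFP_High. Eif2s3y, a gene of the Y chromosome, lay at 301, 246 and 8.4 in Villus, against 202, 3.5, 5.2 and 4.0 in GFP_High. Xist, the RNA of the inactive X chromosome, lay at 12.4, 8.6 and 1136 in Villus, against 28.8, 3688, 3348 and 4119 in GFP_High. Both were chosen after their values were seen, and the arrays bright in the one were dim in the other. The part of the sex of the mice in the differences was not tested. Arrays measure RNA of a bulk sample, so that fewer cells of a type and less RNA per cell cannot be told apart. T lymphocyte markers were higher in Villus, as given beside the interferon genes, and their part in the differences was not tested.

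The 10 largest fitted differences in each direction were taken among called genes with non-overlapping groups, outside the 5 classes left aside. They included drug-metabolising cytochromes on the villus side and channels and transporters on the stem cell side. Where all arrays of a group lay under the level of unexpressed genes only a lower bound of the fold holds, so the order among the 10 is not determined. 2010106E10Rik had intensities of 4611, 4189 and 4063 in Villus, against 4.9, 8.9, 9.4 and 6.5 in GFP_High (log2 difference 9.22 ± 0.37, adjusted p = 9.82e-11). Enpp3, an ectonucleotidase that splits nucleotides outside the cell, had intensities of 2401, 2928 and 2862 in Villus, against 5.1, 5.1, 5.1 and 4.9 in GFP_High (at least 344-fold higher, adjusted p = 1.84e-12). Cyp3a11, a cytochrome P450 that oxidises drugs and bile acids, had intensities of 7599, 8486 and 6584 in Villus, against 11.7, 23.2, 13.3 and 15.4 in GFP_High (log2 difference 8.94 ± 0.41, adjusted p = 3.45e-10). None of these 3 genes had a GFP_High array near any Villus array. Cyp2b10, another drug-metabolising cytochrome, had intensities of 2217, 2617 and 2042 in Villus, against 5.1, 5.1, 5.1 and 4.8 in GFP_High (at least 289-fold higher, adjusted p = 4.74e-10). Krt20, a keratin of mature enterocytes, had intensities of 6453, 6482 and 6209 in Villus, against 14.2, 27.8, 28.1 and 12.5 in GFP_High (log2 difference 8.37 ± 0.27, adjusted p = 1.78e-11). Pmp22, a tetraspan protein of cell membranes, had intensities of 1250.2, 1047 and 1031 in Villus, against 4.6, 4.5, 6.3 and 4.4 in GFP_High (at least 139.9-fold higher, adjusted p = 3.84e-12). The other 4 of the 10 were Clca4a (417-fold higher), a chloride channel regulator, the lectin-like receptor gene Clec2h (264-fold higher), the trypsin inhibitor gene Spink1 (247-fold higher) and the adhesion molecule gene Ceacam20 (239-fold higher).

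On the stem cell side Olfm4, given above, was among the 10. Aqp4, a water channel, had intensities of 4.2, 4.8 and 4.8 in Villus, against 601, 599, 452 and 532 in GFP_High (at least 68.7-fold lower, adjusted p = 4.59e-13). Slc12a2, the sodium, potassium and chloride cotransporter that loads secretory cells with chloride, had intensities of 50.6, 67.9 and 51.3 in Villus, against 5949, 4636, 5919.6 and 5506 in GFP_High (log2 difference -6.61 ± 0.17, adjusted p = 2.58e-12). Kcne3, a subunit of the basolateral potassium channel of crypt cells, had intensities of 11.5, 17.3 and 15.4 in Villus, against 1543, 1532, 925 and 1604 in GFP_High (log2 difference -6.56 ± 0.21, adjusted p = 1.78e-11). Every Villus array lay below every GFP_High array in these 3 genes. Igfbp4, a binding protein of insulin-like growth factors, had intensities of 9.4, 20.8 and 4.9 in Villus, against 765, 859, 547 and 685 in GFP_High (log2 difference -6.16 ± 0.39, adjusted p = 8.81e-09). Fgfbp1, a carrier of fibroblast growth factors, had intensities of 4.7, 7.3 and 7.0 in Villus, against 262, 329.7, 517 and 293 in GFP_High (at least 42.8-fold lower, adjusted p = 5.20e-10). Smoc2, a matricellular protein gene, was 74.4-fold lower, Csrp2, a LIM domain protein gene, 66.8-fold lower, the urea transporter gene Slc14a1 at least 40.4-fold lower and Cnn3, a calponin gene, 55.4-fold lower.

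**Figure D1:**
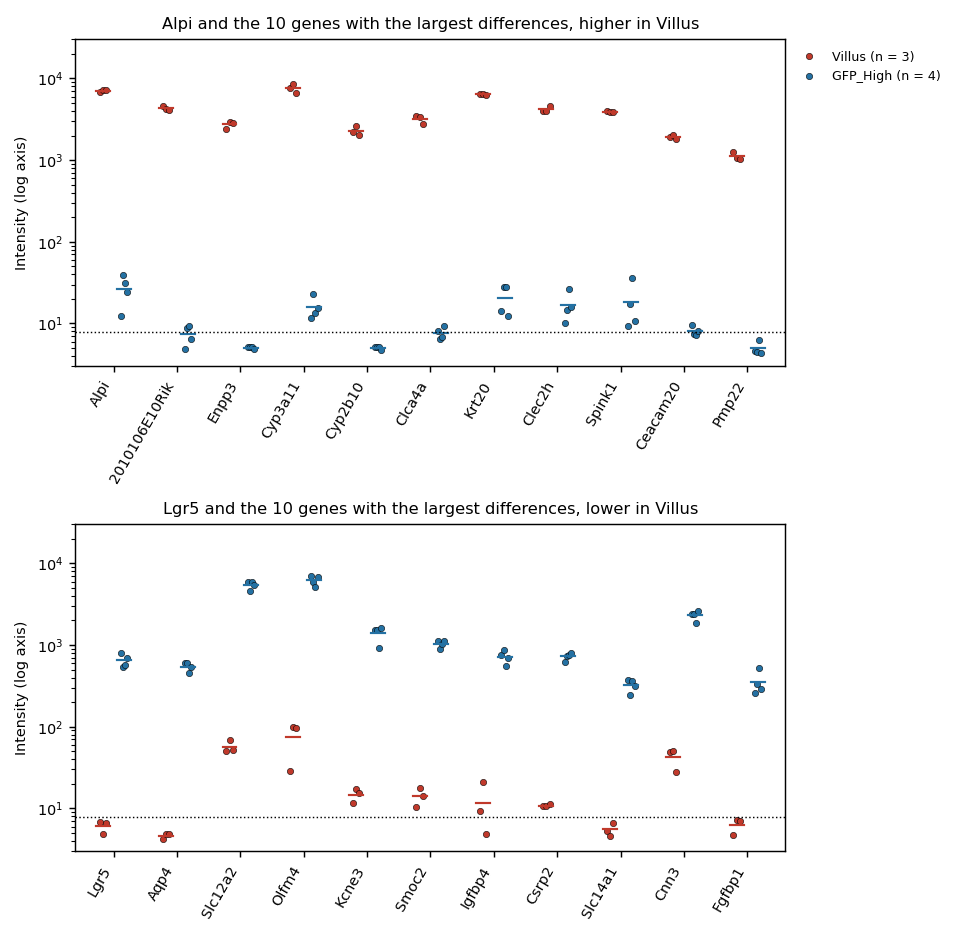
Intensity (log axis) of Alpi and the 10 genes with the largest fitted differences higher in Villus (top), and of Lgr5 and the 10 lower in Villus (bottom), with 1 point per array, Villus in red (n = 3) left of GFP_High in blue (n = 4), bars at the means and a dotted line at the level of unexpressed genes, 7.9. The 10 genes of each panel were chosen among called genes whose groups do not overlap, so their separation restates that choice. The groups do not overlap in Alpi and Lgr5 either.

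**Figure D2:**
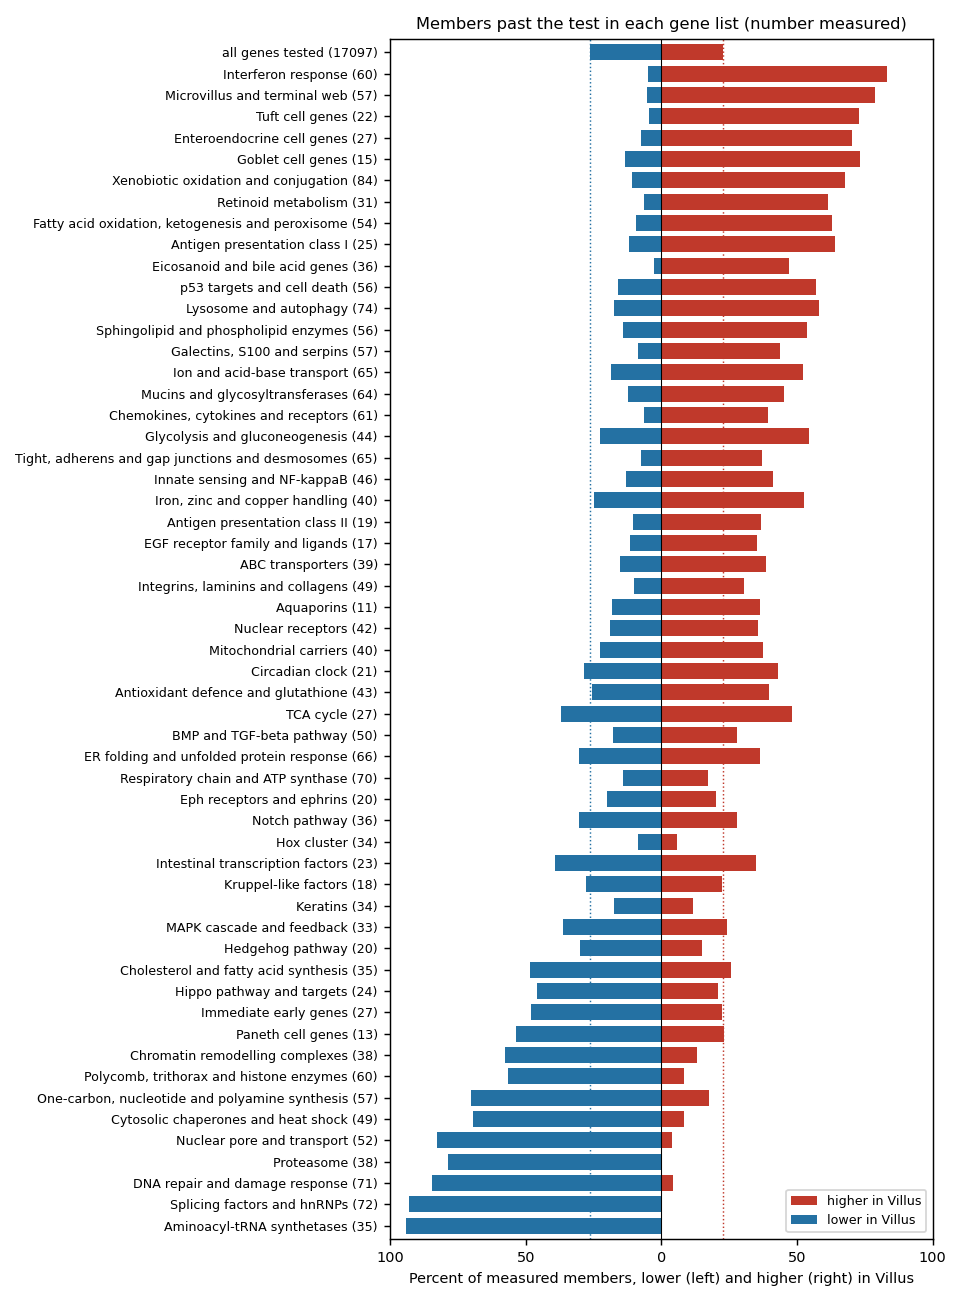
Percent of measured members lower in Villus (blue, left) and higher in Villus (red, right) in each list of pathways, families and epithelial cell types, with the number measured in brackets and the shares of all genes tested on top and as dotted lines (22.6% higher and 26.3% lower). In the interferon response 50 of 60 genes are higher, and among aminoacyl-tRNA synthetases 33 of 35 are lower.

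Signalling pathways had members in both directions, as all genes tested had (22.6% higher and 26.3% lower). In the Notch, BMP and TGF-beta and Eph lists the shares were near those of all genes. In the Notch pathway, in which a ligand on a neighbour releases an intracellular transcription factor that holds crypt cells undifferentiated, 36 members were measured, of which 10 were higher in Villus, 11 were lower and 15 did not pass the test (median log2 difference 0.01), and with equal array medians the counts would be 16 and 9. Notch1, a receptor, had intensities of 24.7, 18 and 20.1 in Villus, against 578, 632, 532 and 557 in GFP_High (log2 difference -4.79 ± 0.16, adjusted p = 2.45e-11). Hes1, a repressor that Notch induces, had intensities of 41.4, 55.7 and 28.9 in Villus, against 416, 220.2, 553 and 492 in GFP_High (log2 difference -3.29 ± 0.37, adjusted p = 2.85e-06). Every Villus array lay below every GFP_High array in both. Dtx4, an E3 ligase gene of the pathway, and Mib1, the ligase that activates ligands, were lower as well, with differences of -3.52 and -2.01. Higher in Villus were Dtx1 (2.15), Numb (1.79), an inhibitor of the receptor, Atoh1 (1.68), the transcription factor that Hes1 represses, and Ncstn (1.04), a subunit of the gamma-secretase that cleaves the receptor. Psenen, another subunit of it, averaged 884 ± 47.4 in Villus and 803 ± 33.4 in GFP_High (SD, n = 3 and 4) and did not pass the test.

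BMP signals come from the villus stroma and epithelium and are known to hold back division. Of 50 BMP and TGF-beta pathway members, 14 were higher in Villus, 9 were lower and 27 did not pass the test (median log2 difference 0.09). Bmp8a, a ligand, had intensities of 228, 203 and 154 in Villus, against 6.8, 7.4, 7.1 and 6.4 in GFP_High (at least 24.3-fold higher, adjusted p = 7.41e-12). Bmp2, a ligand, had intensities of 164, 191 and 112 in Villus, against 15.9, 21.7, 24.4 and 16.6 in GFP_High (log2 difference 2.97 ± 0.27, adjusted p = 3.27e-07). Intracellular brakes of the pathway were also higher in all Villus arrays, with differences of 2.64 for Skil and 2.33 for Smad7. On the stem cell side were Tgif1 (-3.53), a corepressor, Fstl1 (-3.69), a secreted antagonist, Bmp7 (-1.76) and Bambi (at least 2.6-fold), a decoy receptor. Smad4, the shared mediator, averaged 733 ± 126 in Villus and 813 ± 47.3 in GFP_High, and Id1, a BMP target, averaged 599.6 ± 91.6 in Villus and 619.8 ± 163 in GFP_High (SD, n = 3 and 4); neither passed the test.

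Hedgehog ligands are made by the villus epithelium and read by the stroma. Of 20 measured members, 3 were higher in Villus, 6 were lower and 11 did not pass the test (median log2 difference -0.08), and with equal array medians the counts would be 4 and 4. Ihh, the ligand of this epithelium, had intensities of 54.8, 73.1 and 46.2 in Villus, against 8.2, 10.2, 14 and 11.1 in GFP_High (log2 difference 2.42 ± 0.25, adjusted p = 1.36e-06). Smo, the signal transducer, had intensities of 7.9, 5.5 and 6.3 in Villus, against 164, 166, 143 and 149 in GFP_High (at least 19.7-fold lower, adjusted p = 2.33e-11). Ptch1, the receptor, had intensities of 26.1, 25.5 and 22.2 in Villus, against 218, 182, 222 and 231 in GFP_High (log2 difference -3.11 ± 0.35, adjusted p = 2.86e-06). The ligand was thus higher, and the transducer and receptor lower, on every Villus array.

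Of 17 genes of the EGF receptor family and its ligands, 6 were higher in Villus, 2 were lower and 9 did not pass the test (median log2 difference 0.15). Lrig1, a membrane inhibitor of the receptors, had intensities of 17.3, 30.8 and 17.9 in Villus, against 790.4, 613, 545 and 699 in GFP_High (log2 difference -4.95 ± 0.19, adjusted p = 8.50e-11). It carried the largest difference of the list, and Egfr itself differed by -0.77, a call that was lost with the mean of its probe sets (-0.04). Erbb3 (1.29) and Erbb2 (0.9), the partner receptors, and the ligand gene Tgfa (1.25) were higher in Villus. Of 33 genes of the MAPK cascade downstream, 8 were higher in Villus, 12 were lower and 13 did not pass the test (median log2 difference -0.12), a majority that would turn to 11 and 9 with equal array medians. Dusp6, a phosphatase of ERK, had intensities of 839.8, 1102 and 705 in Villus, against 42.3, 20.3, 65.4 and 43.3 in GFP_High (log2 difference 4.46 ± 0.31, adjusted p = 2.55e-08). The kinase genes Map2k1 (1.89), Map2k2 (1.19) and Mapk8 (1.36) were higher, while the inhibitors Spry1 (-2.38) and Spred1 (-2.38) and the immediate early phosphatase gene Dusp1 (-2.73) were lower.

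Eph receptors and ephrins sort crypt and villus cells by repulsion. Of 20 measured, 4 were higher in Villus, 4 were lower and 12 did not pass the test (median log2 difference -0.0039). Ephb3, a receptor, had intensities of 13.7, 17.2 and 9.0 in Villus, against 227, 169.5, 159 and 169 in GFP_High (log2 difference -3.8 ± 0.21, adjusted p = 1.83e-09). Efnb2, a ligand of EphB receptors, had intensities of 247, 262 and 208 in Villus, against 22.4, 17.8, 44.2 and 21.2 in GFP_High (log2 difference 3.27 ± 0.25, adjusted p = 5.85e-08). The receptor gene Ephb4 was lower (-3.69), as was the ligand gene Efna4 (-3.7). Epha1 (3.09) and Epha2 (1.71), receptors of the A class, and Efnb1 (0.89) were higher. In the Hippo pathway, whose effectors YAP and TAZ turn on growth and repair genes, 24 members were measured, of which 5 were higher in Villus, 11 were lower and 8 did not pass the test (median log2 difference -0.22), or 7 and 8 with equal array medians. Ccn1, a target of the effectors, had intensities of 40.9, 37.4 and 42.1 in Villus, against 426, 319.6, 831 and 554 in GFP_High (log2 difference -3.64 ± 0.25, adjusted p = 2.29e-08). Wwtr1, which encodes TAZ, differed by -2.79, and the cofactor gene Vgll4 by -2.85. Lats2, a kinase that restrains the effectors, was at least 2.9-fold higher, while Lats1 averaged 256 ± 14.2 in Villus and 261 ± 24.1 in GFP_High (SD, n = 3 and 4) and did not pass the test.

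Transcription factors of the intestine also had members in both directions. Of 23 measured, 8 were higher in Villus, 9 were lower and 6 did not pass the test (median log2 difference 0.25), or 12 and 9 with equal array medians. Creb3l3, a membrane-bound factor of lipid metabolism, had intensities of 880.3, 960.0 and 982 in Villus, against 12.4, 15.1, 20.4 and 11.2 in GFP_High (log2 difference 6.03 ± 0.25, adjusted p = 1.19e-10). Maf had intensities of 77.8, 98.7 and 86.5 in Villus, against 4.5, 3.7, 5.8 and 3.4 in GFP_High (at least 11-fold higher, adjusted p = 3.27e-08). Prdm1, BLIMP1, a repressor known from the fetal epithelium and from lymphocytes, had intensities of 123, 137 and 104 in Villus, against 6.0, 6.5, 8.4 and 8.4 in GFP_High (log2 difference 4.06 ± 0.18, adjusted p = 2.29e-10). These factors were close to the level of unexpressed genes on the GFP_High arrays and clearly above it on all Villus arrays. Sox4, a factor of immature cells, had intensities of 48.3, 44.9 and 29.8 in Villus, against 1972, 1674, 1878 and 2003 in GFP_High (log2 difference -5.55 ± 0.16, adjusted p = 6.48e-12). Myb, a factor that dividing progenitors need, had intensities of 5.0, 4.5 and 3.9 in Villus, against 209, 189.8, 236 and 251 in GFP_High (at least 27.9-fold lower, adjusted p = 1.49e-11). Sox9, a factor of the crypt base, had intensities of 8.9, 7.5 and 8.3 in Villus, against 211, 199.7, 241 and 298 in GFP_High (log2 difference -4.84 ± 0.19, adjusted p = 1.08e-10). In these 3 the Villus arrays were the ones near that level or within a few times of it, and Ehf (-4.18) was lower too. Hnf4a, which specifies the epithelium as a whole, averaged 2255 ± 99.1 in Villus and 2443 ± 169 in GFP_High and Gata6 642 ± 31.8 in Villus and 498 ± 19 in GFP_High (SD, n = 3 and 4); neither passed the test. Among the Kruppel-like factors, of which 4 were higher in Villus, 5 were lower and 9 did not pass the test (median log2 difference 0.02), a split that would become 8 and 2 with equal array medians, Klf4, known from cells that have stopped dividing, differed by 3.09 and Klf11 by -2.67.

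Nuclear receptors, which read steroids, bile acids, lipids and drugs, numbered 42 on the arrays. Of these, 15 were higher in Villus, 8 were lower and 19 did not pass the test (median log2 difference 0.12). Nr1i3, CAR, which senses foreign compounds, had intensities of 178, 160.3 and 202 in Villus, against 7.8, 9.2, 10.5 and 10.2 in GFP_High (log2 difference 4.26 ± 0.15, adjusted p = 3.49e-11). Hnf4g, a factor of enterocytes, had intensities of 331, 308 and 262 in Villus, against 23.5, 26.9, 34.8 and 36.3 in GFP_High (log2 difference 3.32 ± 0.23, adjusted p = 1.98e-08). Esrrg, an orphan receptor of oxidative metabolism, had intensities of 7.7, 11.8 and 7.8 in Villus, against 264, 228, 186 and 283 in GFP_High (log2 difference -4.73 ± 0.23, adjusted p = 5.49e-10). Pparg (2.16), a receptor of fatty acids, and Nr3c2 (1.98), the receptor of aldosterone, were also higher. Nr4a1 (-4.08) and Nr4a2 (-2.93), which respond to acute stimuli, and Nr2f2 (-1.91) were lower. Vdr, the vitamin D receptor, averaged 1223 ± 269 in Villus and 1227 ± 94.4 in GFP_High (SD, n = 3 and 4) and did not pass the test.

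Of 34 Hox genes measured, 2 were higher in Villus, 3 were lower and 29 did not pass the test (median log2 difference 0.02), or 7 and 1 with equal array medians. Hoxb6, a factor of the body axis, was at least 1.6-fold lower. Most of them lay near the level of unexpressed genes. Of 21 circadian clock genes, 9 were higher in Villus, 6 were lower and 6 did not pass the test (median log2 difference 0.15). Npas2, a partner of BMAL1, stood at 192, 222 and 224 in Villus, against 22.2, 39.5, 33.9 and 32.2 in GFP_High, a difference of 2.76. Of the period genes, Per3 (-2.32) and Per1 (-1.39) were lower, and Per2 ranged from 52.9 to 189.7 among Villus arrays and from 39.0 to 113.2 among GFP_High arrays and did not pass the test. The hour at which the mice were killed is not given. Timeless (-4.21), despite its name a factor of the replication fork in mammals, had the largest difference of the lower members.

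The machinery that makes RNA and protein gave the most one-sided lists. Of 72 splicing factors and hnRNPs, which remove introns and coat RNA, 0 were higher in Villus, 67 were lower and 5 did not pass the test (median log2 difference -1.83). Snrpd1, a core protein of the spliceosome, had intensities of 50.1, 45.7 and 39 in Villus, against 547, 688, 657 and 629.6 in GFP_High (log2 difference -3.81 ± 0.23, adjusted p = 5.91e-09). Hnrnpa1, an RNA-binding repressor of exons, had intensities of 68.1, 77.4 and 94.8 in Villus, against 1057, 885, 877 and 1060.3 in GFP_High (log2 difference -3.61 ± 0.15, adjusted p = 1.41e-10). Every Villus array was far below every GFP_High array in these genes. Of the 5 that did not pass, Hnrnph2 stood at 316, 288 and 212 in Villus, against 319.9, 307, 396 and 408 in GFP_High, and passed without Villus 1 (-0.52) or GFP_High 2 (-0.47), and Tra2b (-0.6) passed without GFP_High 3 (-0.87). With equal array medians 64 of the list would still be lower.

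Of 52 nuclear pore and transport genes, 2 were higher in Villus, 43 were lower and 7 did not pass the test (median log2 difference -1.63). Ipo5, an importin, had intensities of 9.5, 11.3 and 9.6 in Villus, against 382, 374, 473 and 356 in GFP_High (log2 difference -5.28 ± 0.14, adjusted p = 3.85e-12). Nup210, a ring protein of the pore, had intensities of 10.7, 11.6 and 8.7 in Villus, against 187, 192, 202 and 160.1 in GFP_High (log2 difference -4.17 ± 0.23, adjusted p = 1.69e-09). Sec13, which serves both the pore and vesicle coats, was higher by 0.74. Of 35 aminoacyl-tRNA synthetases, which charge tRNA with amino acids, 0 were higher in Villus, 33 were lower and 2 did not pass the test (median log2 difference -1.23). Vars, the valine enzyme, had intensities of 12.8, 15.1 and 13.3 in Villus, against 177, 203, 155 and 153 in GFP_High (log2 difference -3.64 ± 0.27, adjusted p = 4.14e-08). Farsb, a subunit of the phenylalanine enzyme, had intensities of 95.1, 89.1 and 91.3 in Villus, against 762, 732, 760.1 and 758 in GFP_High (log2 difference -3.04 ± 0.20, adjusted p = 1.58e-08). The cytosolic alanine enzyme gene Aars averaged 136 ± 4.9 in Villus and 168 ± 28.6 in GFP_High (SD, n = 3 and 4) and the mitochondrial Fars2 9.7 ± 2.8 in Villus and 14.9 ± 3.2 in GFP_High (SD, n = 3 and 4). Neither passed the test, though Aars passed without GFP_High 4 (-0.42) and Fars2 without Villus 2 (-0.85).

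Genes of protein folding and breakdown were mostly lower too. Of 49 cytosolic and mitochondrial chaperones, 4 were higher in Villus, 34 were lower and 11 did not pass the test (median log2 difference -1.46). Hspe1, the lid of the mitochondrial folding chamber, had intensities of 233, 304 and 280.3 in Villus, against 2430.0, 2638, 2723 and 2684 in GFP_High (log2 difference -3.27 ± 0.21, adjusted p = 9.44e-09). Hsph1, an exchange factor of HSP70, had intensities of 58.3, 148 and 62.5 in Villus, against 571, 1241, 667 and 650.4 in GFP_High (log2 difference -3.19 ± 0.36, adjusted p = 3.62e-06). GFP_High 2 and Villus 2 were each the highest of their group in Hsph1. Dnaja1 averaged 975 ± 146 in Villus and 983 ± 95.9 in GFP_High (SD, n = 3 and 4) and did not pass the test. Of 38 proteasome genes, 0 were higher in Villus, 30 were lower and 8 did not pass the test (median log2 difference -0.72). The 3 largest differences belonged to assembly chaperones, not to subunits: Psmg2 (-3.38), Psmg1 (-3.2) and Psmg3 (-3.04). Psmg2 had intensities of 34.7, 26.9 and 33.4 in Villus, against 284, 341, 338 and 351 in GFP_High (log2 difference -3.38 ± 0.17, adjusted p = 7.12e-10). Psmd4, a ubiquitin receptor of the cap, averaged 606 ± 25.2 in Villus and 676 ± 93.4 in GFP_High (SD, n = 3 and 4) and did not pass the test.

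In the endoplasmic reticulum members went both ways, and of 66 folding and unfolded protein response genes 24 were higher in Villus, 20 were lower and 22 did not pass the test (median log2 difference -0.01), or 23 and 24 after quantile normalization and 29 and 13 with equal array medians. Creb3l2, a factor of secretory cells, had intensities of 398, 426 and 520.5 in Villus, against 23.8, 24.4, 30.8 and 25.8 in GFP_High (log2 difference 4.09 ± 0.19, adjusted p = 4.19e-10). The oxidase gene Ero1b (2.74) and Edem1 (2.31), which marks glycoproteins for breakdown, were higher as well, and the disulfide isomerase gene Pdia6 (-1.97) and the stress genes Ppp1r15a (-2.28) and Atf3 (-1.59) lower. Canx and Calr, the lectin chaperones, averaged 1153 ± 18.1 in Villus and 1336 ± 84.3 in GFP_High for Canx and 1334 ± 78.8 in Villus and 1310.2 ± 184 in GFP_High for Calr (SD, n = 3 and 4) and did not pass the test.

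**Figure D3:**
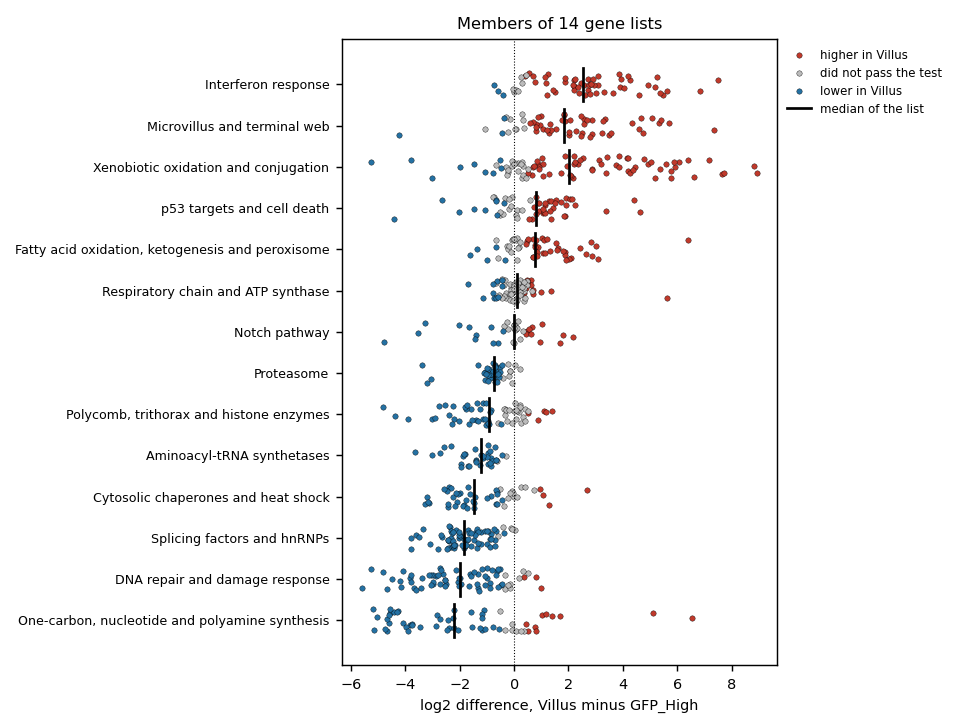
Differences of single genes (log2, Villus minus GFP_High) in 14 lists, with 1 point per measured gene, red for higher in Villus, blue for lower, grey for genes that did not pass the test, and a black bar at the median of each list. The medians run from 2.52 in the interferon response to -2.21 in one-carbon, nucleotide and polyamine synthesis.

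Histone-modifying and chromatin-remodelling genes were mostly lower. Of 60 Polycomb, trithorax and histone enzyme genes, 5 were higher in Villus, 34 were lower and 21 did not pass the test (median log2 difference -0.93). Prmt1, the main arginine methyltransferase, had intensities of 26.9, 30.5 and 22.1 in Villus, against 694, 818, 734 and 725 in GFP_High (log2 difference -4.82 ± 0.21, adjusted p = 2.66e-10). Rbbp7, a histone-binding subunit of Polycomb and deacetylase complexes, had intensities of 279.5, 253 and 313 in Villus, against 2149.8, 2249, 2485 and 2281 in GFP_High (log2 difference -3.03 ± 0.15, adjusted p = 8.71e-10). The methyltransferase gene Prmt5 (-4.39) and the Polycomb reader gene Cbx6 (-3.92) were lower too. Against this direction went Ezh1, the Polycomb methyltransferase of cells that do not divide, which stood at 149, 160.5 and 174 in Villus, against 71.8, 80.0, 71.3 and 80.0 in GFP_High (1.09), the acetyltransferase gene Kat2b (1.39) and the demethylase gene Kdm5b (1.17). Of 38 remodelling complex genes, 5 were higher in Villus, 22 were lower and 11 did not pass the test (median log2 difference -0.68), with Smarcc1 (-2.62), Actl6a (-2.63) and Mbd3 (-2.55) lower and Chd3 (2.06), which like MBD3 belongs to the NuRD complex, higher.

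DNA repair genes were mostly lower. Of 71 measured, 3 were higher in Villus, 60 were lower and 8 did not pass the test (median log2 difference -1.98). Apex1, the endonuclease of base excision repair, had intensities of 8.8, 8.9 and 8.3 in Villus, against 476, 451, 357 and 414 in GFP_High (log2 difference -5.61 ± 0.22, adjusted p = 9.18e-11). Brca2, a mediator of homologous recombination, had intensities of 5.5, 5.1 and 5.2 in Villus, against 152, 131, 141 and 119.5 in GFP_High (at least 17.1-fold lower, adjusted p = 3.03e-11). Tipin (-5.27), which steadies replication forks, and Ung (-4.81), which removes uracil, were lower by similar amounts. Lig4, the ligase of end joining, was among the 3 genes that went the other way, at 66.4, 80.4 and 67.7 in Villus, against 27.1, 43.1, 38.2 and 38.4 in GFP_High (0.98), with Xpa (0.81) of nucleotide excision repair and Wrn (0.38), a helicase, whose call was lost without Villus 1 (0.29) or GFP_High 2 (0.34).

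Genes of cell death and targets of p53, a list that holds genes that block death as well, were mostly higher. Of 56 measured, 32 were higher in Villus, 9 were lower and 15 did not pass the test (median log2 difference 0.79). Fas, a death receptor, had intensities of 188, 182 and 204 in Villus, against 7.8, 10.6, 6.2 and 7.0 in GFP_High (log2 difference 4.63 ± 0.17, adjusted p = 5.59e-11). Bcl2l15, a BCL2 relative of the gut, had intensities of 116, 102 and 85.1 in Villus, against 4.4, 5.0, 5.1 and 4.2 in GFP_High (at least 12.7-fold higher, adjusted p = 1.73e-10). Cdkn1a, p21, an inhibitor of cyclin-dependent kinases, had intensities of 860.0, 770.4 and 644 in Villus, against 51.5, 44.2, 145 and 85.8 in GFP_High (log2 difference 3.37 ± 0.34, adjusted p = 9.74e-07). Their Villus arrays were all above their GFP_High arrays, with GFP_High 3 the highest of its group in Cdkn1a. Birc5, survivin, which also serves in mitosis, had intensities of 23.7, 37 and 22.8 in Villus, against 565, 678, 587 and 499 in GFP_High (log2 difference -4.41 ± 0.61, adjusted p = 2.39e-05). Bcl2 (-1.48), which blocks death, and Sesn3 (-2.02) were also lower. The call of Bcl2 was lost under the methods' t-test at 0.01. Mcl1, a survival factor of the same list given below with the immediate early genes, was higher. Tnfsf10, the death ligand TRAIL, averaged 194 ± 25.6 in Villus and 207 ± 28.2 in GFP_High (SD, n = 3 and 4) and did not pass the test.

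Genes of nucleotide synthesis were mostly lower, and some genes of nucleoside breakdown were higher. Of 57 one-carbon, nucleotide and polyamine genes, 10 were higher in Villus, 40 were lower and 7 did not pass the test (median log2 difference -2.21). Gart, which catalyses 3 steps of purine synthesis, had intensities of 9.7, 9.8 and 17.8 in Villus, against 435, 460.2, 389.8 and 427 in GFP_High (log2 difference -5.16 ± 0.27, adjusted p = 1.35e-09). Dut, which removes dUTP, had intensities of 10.8, 13 and 9.4 in Villus, against 351, 395, 477 and 408 in GFP_High (log2 difference -5.21 ± 0.36, adjusted p = 2.38e-08). Ppat (-4.76), the first committed enzyme of purine synthesis, and Uck2 (-5.03), which salvages uridine, were lower too. The largest differences on the villus side belonged to enzymes of nucleoside breakdown. Ada, adenosine deaminase, had intensities of 7255, 6971 and 6317 in Villus, against 70.3, 97.3, 75.6 and 54.9 in GFP_High (log2 difference 6.55 ± 0.28, adjusted p = 1.69e-10). Upp1, uridine phosphorylase, had intensities of 1200.1, 1067 and 938 in Villus, against 32.4, 31.4, 28.6 and 30.7 in GFP_High (log2 difference 5.11 ± 0.21, adjusted p = 1.44e-10). Pnp, purine nucleoside phosphorylase, went with them (1.7).

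Carbon metabolism differed gene by gene. Of 44 glycolysis and gluconeogenesis genes, 24 were higher in Villus, 10 were lower and 10 did not pass the test (median log2 difference 0.63). G6pc, the glucose-6-phosphatase catalytic subunit of liver, kidney and gut, had intensities of 544, 706 and 876 in Villus, against 6.8, 5.3, 5.0 and 5.5 in GFP_High (at least 88-fold higher, adjusted p = 2.03e-11). Pcx, pyruvate carboxylase, had intensities of 203, 248 and 229 in Villus, against 18.9, 23.1, 11.7 and 19.9 in GFP_High (log2 difference 3.66 ± 0.31, adjusted p = 1.88e-07). Hk2, a hexokinase, had intensities of 101, 70.6 and 43.5 in Villus, against 537, 415, 625 and 624 in GFP_High (log2 difference -3.0 ± 0.26, adjusted p = 2.29e-07). G6pc3, the widely expressed phosphatase, was 4.0-fold lower, the mitochondrial Pck2 was also lower (-4.18), and the phosphofructokinase genes Pfkp (3.86) and Pfkfb3 (3.59) were higher. Of 27 TCA cycle genes, 13 were higher in Villus, 10 were lower and 4 did not pass the test (median log2 difference 0.42). Among the isocitrate dehydrogenases, the cytosolic Idh1 stood at 1780.1, 2109 and 1993 in Villus, against 357, 289, 343 and 369.9 in GFP_High (2.53), and the mitochondrial Idh2 at 46.4, 49.2 and 67.7 in Villus, against 356, 389.5, 396 and 312 in GFP_High (-2.75). Idh3a (-0.64), Idh3b (-0.7) and Idh3g (-0.8), the subunits of the mitochondrial enzyme that works with NAD, were lower by smaller amounts. Sdha, of succinate dehydrogenase, averaged 1625 ± 105 in Villus and 1652 ± 98.5 in GFP_High (SD, n = 3 and 4) and did not pass the test.

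The respiratory chain differed little. Of 70 subunit genes, 12 were higher in Villus, 10 were lower and 48 did not pass the test (median log2 difference 0.1), and its direction followed the scaling, with 35 higher and 5 lower at equal array medians and 10 higher and 19 lower after quantile normalization. Cox7a1, a subunit form of cytochrome oxidase known from heart and muscle, had intensities of 878, 929 and 657 in Villus, against 10.2, 28.5, 14.4 and 18.3 in GFP_High (log2 difference 5.61 ± 0.33, adjusted p = 4.12e-09). Its Villus arrays were the only ones bright in it. Cox7a2l (-1.16), a factor of supercomplex assembly, was lower, and Cycs (1.34), cytochrome c, was higher. Atp5g3 and Cox5b, the brightest members that did not pass, averaged 5194 ± 160.0 in Villus and 4761 ± 241 in GFP_High for Atp5g3 and 4637 ± 272 in Villus and 3769 ± 242 in GFP_High for Cox5b (SD, n = 3 and 4).

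Genes of fatty acid oxidation were mostly higher. Of 54 fatty acid oxidation, ketogenesis and peroxisome genes, 34 were higher in Villus, 5 were lower and 15 did not pass the test (median log2 difference 0.77). Acaa1b, a peroxisomal thiolase, had intensities of 684, 777 and 889 in Villus, against 6.7, 7.4, 16.3 and 9.0 in GFP_High (log2 difference 6.4 ± 0.49, adjusted p = 5.71e-08). Ehhadh (3.09) and Acox2 (2.88), also peroxisomal, and Acad11 (3.01) followed. Acad9 (-1.62), a dehydrogenase that also assembles complex I, was lower. Among 35 cholesterol and fatty acid synthesis genes, 9 were higher in Villus, 17 were lower and 9 did not pass the test (median log2 difference -0.52), or 14 and 15 with equal array medians. Fads2, the delta-6 desaturase of polyunsaturated fatty acids, had intensities of 8.5, 12.1 and 9.8 in Villus, against 564, 631, 347 and 556 in GFP_High (log2 difference -5.67 ± 0.21, adjusted p = 4.72e-11). Fads1, the delta-5 desaturase, had intensities of 8.8, 14.2 and 7.3 in Villus, against 521, 503, 346 and 398 in GFP_High (log2 difference -5.49 ± 0.25, adjusted p = 2.74e-10). Fasn, fatty acid synthase, had intensities of 28.3, 29.4 and 22.3 in Villus, against 240.4, 293, 268 and 194 in GFP_High (log2 difference -3.22 ± 0.19, adjusted p = 3.51e-09). Both desaturases were near the level of unexpressed genes on all Villus arrays. Sc5d (2.51), a late enzyme of cholesterol synthesis, and Insig2 (2.24), a brake on it, were higher.

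Complex lipids were mostly on the villus side. Of 56 sphingolipid and phospholipid enzymes, 30 were higher in Villus, 8 were lower and 18 did not pass the test (median log2 difference 0.64). Asah2, the neutral ceramidase of the brush border, had intensities of 2971, 2836 and 2516 in Villus, against 27.3, 14.5, 26.5 and 22.6 in GFP_High (log2 difference 6.97 ± 0.24, adjusted p = 2.33e-11). Pla2g4a, the cytosolic phospholipase that frees arachidonic acid, averaged 9.1 ± 1.8 in Villus and 216 ± 21.9 in GFP_High (SD, n = 3 and 4) and was lower (-4.59). Plpp1 (5.5), a lipid phosphatase gene, and Pcyt1a (4.3), the regulated step of phosphatidylcholine synthesis, were higher, and the ceramide synthase genes Cers4 (-2.28) and Cers5 (-2.11) lower. Of 36 eicosanoid and bile acid genes, 17 were higher in Villus, 1 was lower and 18 did not pass the test (median log2 difference 0.54). Cyp4f14, a hydroxylase of leukotrienes and fatty acids, had intensities of 2648, 2731 and 2685 in Villus, against 21.2, 49.1, 35.2 and 27 in GFP_High (log2 difference 6.41 ± 0.28, adjusted p = 2.20e-10). Both chains of the bile acid exporter of the basolateral membrane were higher, Slc51a by 5.3 and Slc51b by 6.02. Ptges3 (-1.79), also a cochaperone of HSP90, was the lower member.

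Enzymes that detoxify foreign compounds were mostly higher. Of 84 oxidation and conjugation genes, 57 were higher in Villus, 9 were lower and 18 did not pass the test (median log2 difference 2.0). Cyp3a25 (211-fold higher) and Cyp3a13 (199-fold higher) joined the cytochromes named above. Cyp2e1, a cytochrome of ethanol and small molecules, had intensities of 4.2, 5.6 and 4.4 in Villus, against 441, 299, 15.5 and 499 in GFP_High (at least 22.6-fold lower, adjusted p = 2.52e-04). All Villus arrays lay under the level of unexpressed genes, and GFP_High 3 was far below the other GFP_High arrays. Aldh1b1, a mitochondrial aldehyde dehydrogenase, had intensities of 233, 309 and 336 in Villus, against 2442, 2331, 2169.9 and 2502 in GFP_High (log2 difference -3.03 ± 0.17, adjusted p = 2.64e-09). Gstp1, a glutathione transferase gene, averaged 3347 ± 179 in Villus and 2502 ± 482 in GFP_High (SD, n = 3 and 4) and did not pass the test. It was called higher in a fit of the 7 arrays alone (0.44) and with equal array medians (0.72). Retinoid genes went the same way, and of 31 measured 19 were higher in Villus, 2 were lower and 10 did not pass the test (median log2 difference 0.58). Rbp2, the retinol carrier of enterocytes, had intensities of 2534, 2682 and 2389 in Villus, against 13.5, 15.9, 27 and 11.3 in GFP_High (log2 difference 7.31 ± 0.25, adjusted p = 2.75e-11). Aldh1a1 (5.89), which makes retinoic acid, and Bco1 (3.58), which splits beta-carotene, were higher. Of 43 antioxidant genes, 17 were higher in Villus, 11 were lower and 15 did not pass the test (median log2 difference 0.26). Srxn1 (4.38), which repairs peroxiredoxins, was higher, Prdx4 (-4.06), a peroxiredoxin of the secretory pathway, and Gpx2 (-2.37), the crypt glutathione peroxidase, were lower, and Sod1 averaged 1422 ± 19.7 in Villus and 1411 ± 94 in GFP_High (SD, n = 3 and 4) and did not pass the test.

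Among ion transporters, exchangers and cotransporters of the brush border led the villus side and members of basolateral chloride secretion the stem cell side. Of 65 genes, 34 were higher in Villus, 12 were lower and 19 did not pass the test (median log2 difference 0.65), a median of 0.44 with genes at the level of unexpressed genes set to their bounds. Slc9a3, NHE3, the sodium and proton exchanger of the brush border, had intensities of 2259.9, 2141 and 2339 in Villus, against 12.5, 15.9, 15.4 and 12.5 in GFP_High (log2 difference 7.33 ± 0.27, adjusted p = 5.05e-11). Slc34a2, a phosphate cotransporter, had intensities of 624, 1226 and 1169 in Villus, against 7.7, 6.7, 10.9 and 7.1 in GFP_High (log2 difference 6.92 ± 0.30, adjusted p = 1.83e-10). Kcnq1, the pore that KCNE3 joins, had intensities of 18.3, 14.8 and 14.4 in Villus, against 639.9, 531, 695 and 556 in GFP_High (log2 difference -5.26 ± 0.17, adjusted p = 2.03e-11). With Slc12a2 and Kcne3, described above, Kcnq1 and Kcnn4 (-5.02) belong to the basolateral apparatus of chloride secretion, and all 4 were lower on every Villus array. Slc13a1, a sulfate transporter gene, was higher as well (6.82). Of 11 aquaporins, 4 were higher in Villus, 2 were lower and 5 did not pass the test (median log2 difference 0.07). Beside Aqp4, Aqp1 was lower, at 307, 377 and 699.8 in Villus, against 1142, 1069.5, 1336 and 1080.1 in GFP_High (-1.41). Aqp7 (at least 10.4-fold higher) and Aqp3 (11.2-fold higher), which also pass glycerol, and Aqp8 (at least 3.6-fold higher) were higher, and Aqp8 differed widely among the Villus arrays, at 7.7, 35.5 and 81.5.

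Genes of metal handling went both ways. Of 40 iron, zinc and copper genes, 21 were higher in Villus, 10 were lower and 9 did not pass the test (median log2 difference 0.42). Slc40a1, ferroportin, the iron exporter, had intensities of 1455, 1803 and 1998 in Villus, against 15.1, 41.4, 58.5 and 45 in GFP_High (log2 difference 5.6 ± 0.41, adjusted p = 3.37e-08). Heph, the ferroxidase that works with it, had intensities of 1802, 1585 and 1394 in Villus, against 106, 98.2, 98.9 and 93.3 in GFP_High (log2 difference 4.0 ± 0.13, adjusted p = 1.68e-11). Tfrc, the transferrin receptor for iron uptake from blood, had intensities of 146, 210.4 and 172 in Villus, against 1831, 2047, 1984 and 1962 in GFP_High (log2 difference -3.49 ± 0.17, adjusted p = 7.39e-10). Slc40a1 and Heph were higher in all Villus arrays and Tfrc lower. The zinc importer gene Slc39a10 (-3.99) and the metalloreductase gene Steap1 (-3.34) were lower, and the manganese exporter gene Slc30a10 was at least 27.3-fold higher. The copper importer gene Slc31a1 stood at 969, 953 and 1050.0 in Villus, against 88.8, 118, 98.9 and 98.2 in GFP_High (3.3). Of 39 ABC transporters, 15 were higher in Villus, 6 were lower and 18 did not pass the test (median log2 difference 0.21). Abcg5 (4.39) and Abcg8 (3.15), partners in the sterol exporter, Abcc2 (3.72) and the drug pump gene Abcb1a (3.6) were higher, and Abcc1 (-3.52) and Abce1 (-2.4), a ribosome recycling factor, lower. Of 40 mitochondrial carriers, 15 were higher in Villus, 9 were lower and 16 did not pass the test (median log2 difference 0.08). Slc25a45 had intensities of 1473, 1938 and 1788 in Villus, against 25.4, 46.9, 12.9 and 34 in GFP_High (log2 difference 6.0 ± 0.41, adjusted p = 2.10e-08). Slc25a4, an ADP and ATP exchanger, was lower (-2.78).

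Microvillus genes were mostly higher. Of 57 microvillus and terminal web genes, 45 were higher in Villus, 3 were lower and 9 did not pass the test (median log2 difference 1.84). Pdzk1, a scaffold of brush border transporters, had intensities of 962, 1064 and 1126 in Villus, against 6.8, 4.9, 8.3 and 6.1 in GFP_High (log2 difference 7.35 ± 0.24, adjusted p = 1.70e-11). Scin, an actin-severing protein, had intensities of 746, 605 and 902 in Villus, against 8.6, 23.6, 34.8 and 13.7 in GFP_High (log2 difference 5.39 ± 0.35, adjusted p = 1.10e-08). Pls3, an actin bundler, had intensities of 5.3, 9.9 and 5.3 in Villus, against 150.2, 114, 103 and 133 in GFP_High (log2 difference -4.25 ± 0.22, adjusted p = 1.25e-09). Tpm4 (-0.45) and Myo1c (-0.38) were the other lower members, and neither passed with equal array medians. Actg1, the bulk actin, averaged 6231 ± 409.6 in Villus and 6017 ± 381 in GFP_High (SD, n = 3 and 4) and did not pass the test. Of 34 keratins, 4 were higher in Villus, 6 were lower and 24 did not pass the test (median log2 difference 0.07), a split that would become 10 and 5 with equal array medians. Krt8, the basic keratin of simple epithelia, stood at 5986, 6612 and 5553 in Villus, against 2994, 3191, 3911 and 2860.2 in GFP_High (0.91), while Krt18, its acidic partner, stood at 588, 554 and 448 in Villus, against 1982, 1675, 2059.8 and 1915 in GFP_High (-1.85). Krt19 (-1.65) and Krt7 (-1.78) were lower.

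Of 65 junction genes, 24 were higher in Villus, 5 were lower and 36 did not pass the test (median log2 difference 0.12). Cldn2, a claudin that lets cations and water pass, had intensities of 32.1, 57.1 and 49.2 in Villus, against 855, 883, 1342 and 726 in GFP_High (log2 difference -4.37 ± 0.29, adjusted p = 1.26e-08). Cldn4, a sealing claudin, had intensities of 607, 628 and 467 in Villus, against 51.8, 19.1, 120.2 and 47.6 in GFP_High (log2 difference 3.53 ± 0.41, adjusted p = 4.70e-06). The protocadherin genes Cdhr5 (5.06) and Cdhr2 (4.74), which link microvilli at their tips, were higher, and the desmosome gene Pkp1 (-3.6) lower. Cldn3 averaged 901 ± 23.2 in Villus and 1083 ± 259 in GFP_High (SD, n = 3 and 4) and did not pass the test. Of 49 integrins, laminins and collagens, 15 were higher in Villus, 5 were lower and 29 did not pass the test (median log2 difference 0.2). Lama3, a laminin chain of the basement membrane, had intensities of 320.4, 224 and 309 in Villus, against 4.1, 3.1, 3.5 and 4.4 in GFP_High (at least 35.6-fold higher, adjusted p = 1.61e-11). Cd44, a hyaluronan receptor of crypts, had intensities of 15.7, 18.1 and 10.9 in Villus, against 656, 535, 329 and 568 in GFP_High (log2 difference -5.12 ± 0.22, adjusted p = 1.89e-10). Itgb5 (4.82) and Itga3 (2.38) were higher, and Cd9 (-3.28) and Itga6 (-0.68) lower. Itgb2, the beta chain of white blood cell integrins, was higher, at 27.7, 25.2 and 10.5 in Villus, against 3.7, 4.3, 4.9 and 4.4 in GFP_High, and is also found on the T lymphocytes described below. Of 64 mucins and glycosyltransferases, 29 were higher in Villus, 8 were lower and 27 did not pass the test (median log2 difference 0.41), with St3gal4 (6.53), a sialyltransferase gene, and the membrane mucin gene Muc3 (4.21) higher and St3gal3 (-2.3) lower. Of 57 galectins, S100 proteins and serpins, 25 were higher in Villus, 5 were lower and 27 did not pass the test (median log2 difference 0.38). Lgals3, galectin-3, stood at 5039, 5430.5 and 3508 in Villus, against 27, 39.6, 71.5 and 41.7 in GFP_High (6.76), and S100g (5.6), which carries calcium through the enterocyte, was higher as well.

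T lymphocyte markers were higher in Villus. Summed intensities of 41 T lymphocyte markers were 4170.2, 3959 and 2688 in the Villus arrays and 261, 282, 249 and 269 in the GFP_High arrays, and 31 of the markers lay above the level of unexpressed genes on every Villus array, against 4 on every GFP_High array. Gzma, a protease of cytotoxic granules, had intensities of 1129.6, 1104 and 822 in Villus, against 6.5, 12.5, 4.3 and 9.4 in GFP_High (log2 difference 7.06 ± 0.31, adjusted p = 2.28e-10). Ptprc, CD45, found on all white blood cells, had intensities of 188, 167 and 113 in Villus, against 4.0, 4.6, 3.7 and 4.5 in GFP_High (at least 19.3-fold higher, adjusted p = 2.40e-11). Cd4 stood at 14.1, 15.8 and 13.8 in Villus, against 14.3, 12.8, 12.6 and 16.3 in GFP_High, and did not pass the test. In all, 33 of the T lymphocyte markers were higher and 0 lower in Villus, while Cd2, Cd5, Cd6, Cd27, Cd28 and Klrk1 stayed at or under the level of unexpressed genes on all 7 arrays.

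Interferon response genes were mostly higher, the highest share among the pathway lists. Interferons bind receptors that activate STAT proteins and interferon regulatory factors (IRF), and the IRF family reads a repeat of GAAA in promoters. The pieces of promoter below show this repeat, GAAANNGAAA on either strand, in capitals for 4 genes that were higher in Villus (Ifit1, Ddx60, Rsad2 and Trim30a) and for Irgm1 and Tgtp1, which did not pass the test. They run 5′ to 3′ on the strand of the gene and lie before its start (RefSeq, GRCm38.p6).
Ifit1, chr19:34640773-34640825 (+ strand): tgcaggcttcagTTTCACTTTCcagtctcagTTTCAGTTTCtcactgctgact
Ddx60, chr8:61928022-61928086 (+ strand): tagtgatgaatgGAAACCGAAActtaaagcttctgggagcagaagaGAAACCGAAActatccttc
Rsad2, chr12:26456551-26456584 (- strand): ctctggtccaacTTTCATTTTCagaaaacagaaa
Trim30a, chr7:104465208-104465241 (- strand): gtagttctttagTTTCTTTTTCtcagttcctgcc
Irgm1, chr11:48871423-48871462 (- strand): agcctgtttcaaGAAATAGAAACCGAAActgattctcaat
Tgtp1, chr11:48992302-48992335 (- strand): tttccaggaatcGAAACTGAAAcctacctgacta
Of 43 list members with a promoter in that table, 18 (41.9%) had the repeat within 250 bases before the start, against 421 of 13605 genes tested (3.09%). Among members higher in Villus it was 14 of 35 and among those that did not pass 4 of 6. A match of letters is a description and says nothing of binding.

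Of 60 members measured, 50 were higher in Villus, 3 were lower and 7 did not pass the test (median log2 difference 2.52), a median of 2.19 with genes at the level of unexpressed genes set to their bounds. Ifit1, which binds foreign RNA, had intensities of 661, 981 and 678 in Villus, against 4.0, 3.6, 4.7 and 4.7 in GFP_High (at least 96.2-fold higher, adjusted p = 1.58e-11). Ido1, which breaks down tryptophan, had intensities of 503, 522 and 401 in Villus, against 4.5, 3.9, 4.0 and 4.2 in GFP_High (at least 59.8-fold higher, adjusted p = 7.52e-12). Usp18, which removes ISG15, had intensities of 253, 459.9 and 210.4 in Villus, against 6.0, 5.2, 5.2 and 7.3 in GFP_High (at least 36.8-fold higher, adjusted p = 4.52e-10). Ddx60, an RNA helicase, had intensities of 347, 569.6 and 385 in Villus, against 11.1, 8.8, 8.8 and 9.8 in GFP_High (log2 difference 5.47 ± 0.22, adjusted p = 1.07e-10). All 4 were at or near the level of unexpressed genes on the GFP_High arrays, and on the GFP_Low arrays, dim cells of the same crypts, they read at most 19.3. The 3 lower members were Isg20 (-0.58), Irf3 (-0.43) and the GTPase gene Iigp1, at 7.8, 7.1 and 5.5 in Villus, against 11.9, 16.1, 6.7 and 11.9 in GFP_High (-0.72), where the groups overlap. Outside the list, Ifitm3, which blocks the entry of viruses and was chosen after its values were seen, stood at 29.2, 59.6 and 25 in Villus, against 2233, 2148, 887 and 2117 in GFP_High (-5.62). The call of Isg20 was lost without Villus 1 or 3 or GFP_High 3 or 4, with differences between -0.57 and -0.40, and that of Irf3 without any of 5 arrays, with differences between -0.45 and -0.32. That of Iigp1 was likewise lost without any of 5 arrays, with differences between -0.76 and -0.55. Irgm1, a GTPase, averaged 101 ± 25.3 in Villus and 96.1 ± 17.5 in GFP_High (SD, n = 3 and 4) and did not pass the test. T lymphocyte markers were higher on the same Villus arrays, as given above, and their part in the interferon list was not tested.

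Class I genes display peptides to cytotoxic lymphocytes. Of 25 measured, 16 were higher in Villus, 3 were lower and 6 did not pass the test (median log2 difference 0.87). H2-T23, Qa-1, had intensities of 3436, 3798 and 3953 in Villus, against 403, 329.8, 177 and 369 in GFP_High (log2 difference 3.61 ± 0.24, adjusted p = 1.62e-08). H2-Q1, a non-classical class I chain, had intensities of 1975, 2169.7 and 1652 in Villus, against 109.7, 95.5, 171 and 176 in GFP_High (log2 difference 3.85 ± 0.23, adjusted p = 4.60e-09). H2-Bl varied widely among Villus arrays, at 287, 2395 and 1376, against 12.9, 10.1, 8.5 and 6.8 in GFP_High. These genes have near-identical relatives, so that a probe set may read more than 1 of them. Canx and Calr, which fold the chains, are given above. Psme1 (-0.43), an activator of the proteasome, was lower, though not with equal array medians (-0.14).

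Class II genes display peptides to helper lymphocytes and their main chains did not pass the test. Of 19 measured, 7 were higher in Villus, 2 were lower and 10 did not pass the test (median log2 difference 1.6). H2-Aa, a class II chain, had intensities of 2970.4, 4594 and 2617 in Villus, against 1309, 1563, 43.3 and 1126 in GFP_High (log2 difference 2.55 ± 1.43, adjusted p = 0.167). H2-Ab1, its partner, had intensities of 1218, 2342 and 1854 in Villus, against 814, 846, 24.6 and 594 in GFP_High (log2 difference 2.46 ± 1.22, adjusted p = 0.116). The titles of GFP_High 3, GFP_Low 2 and a hair bulge sample share a code whose meaning the labels do not give. Another code is shared by GFP_High 1 and GFP_Low 1, and a further one by GFP_High 4 and GFP_Low 3. On the arrays with these other shared codes H2-Aa read at least 630.3. GFP_High 3 lay far below the other GFP_High arrays in both chains. So did GFP_Low 2 among the GFP_Low arrays, at 13.7 for H2-Aa, against 630.3 and 782.4 in the others. H2-Eb1 and Cd74, the invariant chain gene, both chosen after their values were seen, showed the same, at 19.5 and 22.1 on GFP_High 3. Without GFP_High 3 the difference was 1.32 for H2-Aa (adjusted p = 0.434) and 1.23 for H2-Ab1 (adjusted p = 0.315), with GFP_Low 2 still in the estimate of spread. With the mean of probe sets the limma fit called H2-Aa higher (2.81, adjusted p = 0.049) but not H2-Ab1 (2.30, adjusted p = 0.135). Lysosomal Ctss, which trims the invariant chain, was higher on every Villus array (2.5), and Rfxap (-1.08), which drives class II transcription, was lower.

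**Figure D4:**
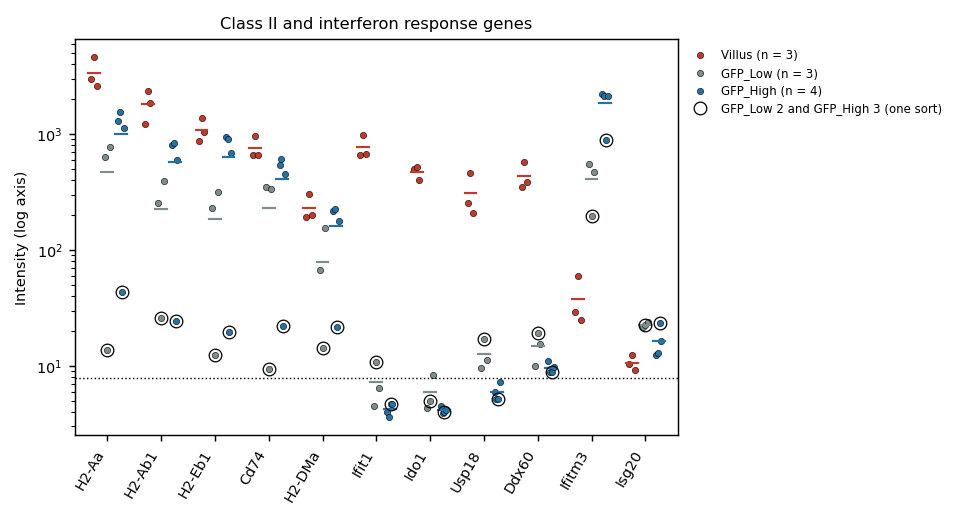
Intensity (log axis) of 5 class II genes, of interferon response genes and of Ifitm3, which is outside that list, with 1 point per array. Villus is in red (n = 3), GFP_Low in grey (n = 3) and GFP_High in blue (n = 4), with bars at the means. Black rings mark GFP_Low 2 and GFP_High 3, whose titles share a code, and a dotted line marks the level of unexpressed genes, 7.9. The legend calls the ringed arrays one sort, which the labels do not state. The ringed arrays are low in the class II genes, with H2-Aa at 13.7 and 43.3. They are also the lowest of their groups in Ifitm3, at 197.0 and 887.0, but not in Isg20. In Ifit1, Ido1, Usp18 and Ddx60 all GFP_Low and GFP_High arrays are low, so these genes could show no such drop.

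Of 46 genes of innate sensing and NF-kappaB, 19 were higher in Villus, 6 were lower and 21 did not pass the test (median log2 difference 0.23). Il18, a cytokine that epithelium stores, had intensities of 1218, 896 and 1113 in Villus, against 37.2, 53.9, 46.6 and 39.8 in GFP_High (log2 difference 4.6 ± 0.26, adjusted p = 3.07e-09). Nlrp9b, a sensor of viral RNA in the gut, had intensities of 110.2, 126 and 84.8 in Villus, against 6.6, 5.8, 4.8 and 6.2 in GFP_High (at least 13.4-fold higher, adjusted p = 1.50e-10). Irak1 (-2.31) and Nod1 (-1.96), a sensor of bacterial peptidoglycan, were lower. Nfkbia, the inhibitor and target of NF-kappaB, averaged 581 ± 137 in Villus and 564 ± 128 in GFP_High and Rela 168 ± 6.4 in Villus and 200.5 ± 23.7 in GFP_High (SD, n = 3 and 4), and neither passed. Of 61 chemokine, cytokine and receptor genes, 24 were higher in Villus, 4 were lower and 33 did not pass the test (median log2 difference 0.29). Ccl5, a chemokine that T lymphocytes make, had intensities of 574, 499 and 340.1 in Villus, against 6.2, 11.9, 6.5 and 10.6 in GFP_High (log2 difference 5.77 ± 0.29, adjusted p = 9.36e-10). Il13ra1, a receptor chain for interleukin 13, had intensities of 758, 819.9 and 554 in Villus, against 19.5, 29.9, 33.5 and 22.5 in GFP_High (log2 difference 4.77 ± 0.21, adjusted p = 2.11e-10). Ccl28, an epithelial chemokine that draws plasma cells, was lower (-1.85).

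Lysosome and autophagy genes were mostly higher, and of 74 measured 43 were higher in Villus, 13 were lower and 18 did not pass the test (median log2 difference 0.71). Ctse, an aspartic protease, had intensities of 202, 483 and 294 in Villus, against 6.0, 6.0, 7.1 and 6.6 in GFP_High (at least 38.8-fold higher, adjusted p = 3.39e-10). Lipa, the acid lipase, had intensities of 776, 768 and 979 in Villus, against 25.5, 20.9, 26.7 and 22.1 in GFP_High (log2 difference 5.14 ± 0.18, adjusted p = 3.67e-11). Atg9a (3.29), which brings membrane to autophagosomes, was higher and Wipi1 (-2.04), which reads their lipids, lower. Psap averaged 376 ± 32.1 in Villus and 399 ± 32.2 in GFP_High (SD, n = 3 and 4) and did not pass the test.

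Immediate early genes, which cells switch on within minutes of growth factors or stress, were more often lower than higher. Of 27 measured, 6 were higher in Villus, 13 were lower and 8 did not pass the test (median log2 difference -0.74). Egr1 had intensities of 82.9, 73 and 74.2 in Villus, against 3014, 1724, 4629.7 and 3794 in GFP_High (log2 difference -5.34 ± 0.26, adjusted p = 5.07e-10). Myc had intensities of 20.0, 12.4 and 8.1 in Villus, against 353, 304, 452 and 390.4 in GFP_High (log2 difference -4.88 ± 0.29, adjusted p = 3.98e-09). Summed over the list the intensities were 8534, 9362 and 8298 in the Villus arrays and 18575, 12889, 23654 and 20135 in the GFP_High arrays. Egr1 read 3004, 4045 and 4099.8 on the GFP_Low arrays, within the range of GFP_High, whereas Myc read 106.5, 180.6 and 136.3 there. These genes are known to respond to dissociation, and since trypsin is described for crypt cells only, handling and cell population cannot be told apart here. Fosl2 (1.38) and Mcl1 (1.28), a survival factor, were higher in Villus.

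Genes of secretory cells were mostly higher in Villus than in GFP_High, except those of Paneth cells. In the GFP_Low arrays the goblet sums were 32762, 35003 and 36741, above 26852, 24773 and 25283 in Villus. Enteroendocrine sums of the GFP_Low arrays were 10813, 10767 and 11969, above 7010, 5712 and 4593 in Villus. Of 15 goblet cell genes, 11 were higher in Villus, 2 were lower and 2 did not pass the test (median log2 difference 1.84). Zg16, a lectin of the mucus, had intensities of 9315, 9402 and 8344 in Villus, against 168, 389, 269 and 308 in GFP_High (log2 difference 5.05 ± 0.24, adjusted p = 4.46e-10). Clca1 (6.83) and Fcgbp (3.84), mucus proteins, followed. Of 27 enteroendocrine genes, 19 were higher in Villus, 2 were lower and 6 did not pass the test (median log2 difference 2.36). Nts, the peptide neurotensin, had intensities of 769, 712 and 446 in Villus, against 6.3, 6.5, 3.7 and 4.9 in GFP_High (at least 79.1-fold higher, adjusted p = 4.46e-10). Neurog3, the factor that starts this lineage, had intensities of 3.8, 4.0 and 4.8 in Villus, against 29.1, 89.5, 53.4 and 34 in GFP_High (at least 5.9-fold lower, adjusted p = 3.96e-07). Hormone genes such as Cck (5.29), Sct (5.23) and Gip (4.75) were thus higher and the early factor lower in Villus. Of 22 tuft cell genes, 16 were higher in Villus, 1 was lower and 5 did not pass the test (median log2 difference 1.0), a median of 0.60 with genes at the level of unexpressed genes set to their bounds. Dclk1, the usual marker, stood at 39.5, 30.9 and 43 in Villus, against 5.7, 8.8, 5.6 and 5.0 in GFP_High, and Rgs13 was at least 9.8-fold higher. Cd24a (-1.62), which crypt cells also express, was the lower member and made the sum of the list higher in GFP_High.

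Of 13 Paneth cell genes, 3 were higher in Villus, 7 were lower and 3 did not pass the test (median log2 difference -0.53). Defa21, a defensin, had intensities of 5.5, 7.3 and 5.5 in Villus, against 177, 308, 315 and 402 in GFP_High (at least 36.5-fold lower, adjusted p = 2.27e-10). Lyz2, a lysozyme, had intensities of 194, 220.5 and 482 in Villus, against 4346, 4452, 2138 and 4503 in GFP_High (log2 difference -3.75 ± 0.32, adjusted p = 2.06e-07). Reg3g, an antibacterial lectin, had intensities of 3988, 5472 and 3204 in Villus, against 381, 167, 276 and 115 in GFP_High (log2 difference 4.28 ± 0.40, adjusted p = 4.69e-07). Defa21, Lyz2 and Mmp7 (-2.75), which activates defensins, were lower on every Villus array. Lyz1, the lysozyme of Paneth granules, stood at 11, 10.7 and 15.1 in Villus, against 13.3, 24.6, 15 and 16.5 in GFP_High and did not pass the test. The 3 Reg3 genes, which enterocytes are also known to make, were higher, Reg3b by 2.86 and Reg3a at least 58.3-fold higher. Defensin genes are near-identical in sequence, so that a probe set may read several. Summed levels of Paneth cell genes were 11991, 13937 and 11936 in the Villus arrays and 7837, 6609, 5700.3 and 7134 in the GFP_High arrays, the Villus sums being mostly Reg3b and Reg3g.

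Markers of cell types outside the epithelium other than T lymphocytes were mostly dim. Of 31 myeloid and mast cell markers, 15 were higher in Villus, 3 were lower and 13 did not pass the test (median log2 difference 0.38), and 18 lay at or under the level of unexpressed genes on all 7 arrays, among them Itgam, Aif1 and Cpa3. Their sums were 555, 528 and 776 in the Villus arrays and 4531, 4632, 2337 and 4688 in the GFP_High arrays, but Lyz2, which Paneth cells also express, makes up most of those in GFP_High. Tyrobp, an adaptor of myeloid and natural killer cells, stood at 68.8, 56.3 and 57.2 in Villus, against 4.4, 3.7, 6.0 and 4.4 in GFP_High. Of 24 fibroblast and pericyte markers, 11 were higher in Villus, 1 was lower and 12 did not pass the test (median log2 difference 0.4). Their sums were 1108, 1339 and 1267 in the Villus arrays and 195, 193, 252 and 184 in the GFP_High arrays, most of it in Villus from Fbln1, and Col1a1, Col1a2 and Pdgfra lay at or under that level on all 7 arrays. Of 12 smooth muscle markers, 7 were higher in Villus, 0 were lower and 5 did not pass the test (median log2 difference 1.21), with sums of 1297, 1765 and 1148 in the Villus arrays and 135, 153, 261 and 122 in the GFP_High arrays, most of it in Villus from Mylk. Of 16 B and plasma cell markers, 5 were higher in Villus, 0 were lower and 11 did not pass the test (median log2 difference 0.09), with Jchain at 95.5, 168 and 28.3 in Villus, against 4.5, 4.6, 4.0 and 4.6 in GFP_High, and Ms4a1, Pax5, Ighm and Igha were among 10 at or under the level. Of 21 endothelial markers, 4 were higher in Villus, 2 were lower and 15 did not pass the test (median log2 difference 0.13), with Pecam1, Cdh5 and Vwf at or under the level. Their sums were 3601, 3476 and 2833 in the Villus arrays and 3806, 2478, 592 and 2191 in the GFP_High arrays, most of it from Ramp2, a receptor partner that other cells express too. Ramp2 stood at 3436, 3327 and 2678 in Villus, against 3607, 2294, 414 and 2003 in GFP_High and did not pass the test, with GFP_High 3 far below the other arrays. Esam, an adhesion molecule, stood at 13.9, 13.1 and 8.4 in Villus, against 76.5, 66.9, 56.7 and 65.5 in GFP_High (-2.52). Of 17 enteric neuron and glia markers, 1 was higher in Villus, 0 were lower and 16 did not pass the test (median log2 difference 0.13). Of 12 erythrocyte and platelet markers, 2 were higher in Villus, 1 was lower and 9 did not pass the test (median log2 difference 0.23). Of 17 pancreas and mesothelium markers, 4 were higher in Villus, 0 were lower and 13 did not pass the test (median log2 difference 1.07). Pancreas sums were 254, 5117 and 223 in the Villus arrays and 168, 163, 195 and 181 in the GFP_High arrays, so that Villus 2 alone was high. The part of these cells in the differences was not tested.

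**Figure D5:**
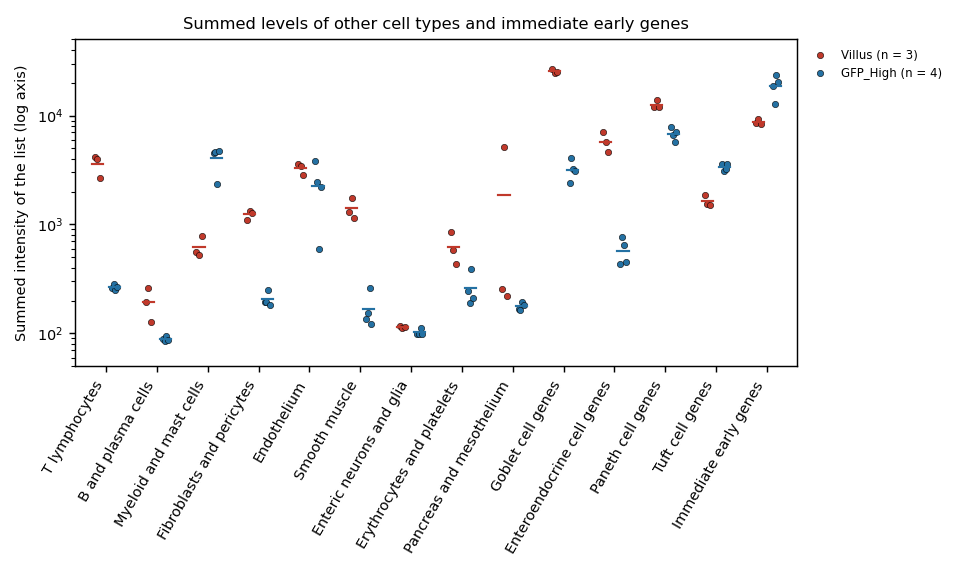
Summed intensity of the markers of other cell types, of secretory cell genes and of immediate early genes (log axis), with 1 point per array, Villus in red (n = 3) left of GFP_High in blue (n = 4), and a bar at each group's mean. T lymphocyte sums of the Villus arrays lie between 2688 and 4170.2, all above the GFP_High arrays, the highest of which is 281.5, and Villus 2 is alone in its pancreas sum of 5117.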

How the data were processed

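RNA of the 13 samples was hybridised to Affymetrix HT MG-430 PM arrays. The authors made the deposited intensity values with RMA-sketch in Affymetrix Power Tools (version not given), a background correction with normalization between arrays and 1 summary value per probe set, and the intensities are on a linear scale. Such summaries compress differences of dim genes. Log2 was taken with no further normalization. Of 45141 probe sets, 28898 had a single gene in the platform annotation. Each of 17097 genes was read from its brightest probe set by mean log2 over all 13 arrays. In 116 of the 7180 genes with over 1 probe set, probe sets were called in both directions (among the genes named, Boc, Ctsl and Cgnl1 were left out for this).

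All 4 groups were fitted with limma 3.58.1 (R 4.3.3) on 13 arrays, and the contrast of Villus against GFP_High was adjusted by Benjamini-Hochberg over all genes. The methods' t-test was an alternative. The fit was tested on simulated data with 200 changed genes, where it recovered 77.4% of log2 changes of 1 and 97.4% of changes of 2, with 5.42% false calls. The simulation had independent noise and changed far fewer genes than were called here, so its rates need not hold for these arrays. Python 3.11.15 and matplotlib 3.10.9 served for counts and plots. Labels give no replicate numbers, so samples were numbered in the order of their listing, and the methods call the samples of a group biological replicates.

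The members, lists and tests were chosen with earlier results of these data known. Named genes were the 5 markers and the 10 largest differences in each direction outside the classes left aside. For each list, up to 4 called members per direction and up to 2 of the brightest that did not pass were named. The brightest markers of other cell types were named too. The 10 largest and the called members were taken only from genes whose groups do not overlap. Statements that their groups do not overlap therefore restate this choice. Eif2s3y, Xist, Ifitm3, Iigp1, Idh3a, Idh3b, Idh3g, H2-Eb1, Cd74, Rsad2, Trim30a and Tgtp1 and the markers named as unexpressed were added after their values were seen. Hair bulge and GFP_Low arrays entered the estimate of spread, the choice of each gene's probe set and the level of unexpressed genes. They also entered the alternatives that were fitted on all arrays. Alternatives were a fit of 7 arrays, quantile normalization, median centring, an offset of 16, the mean of probe sets, a filter on dim genes, a trended and robust prior, the t-test, every probe set tested, and each array left out in turn.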

Additional observations from a re-analysis of the deposited data

Results flagged for a closer look

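In 18 of 316 named genes 1 GFP_High array lay further from the others than the critical value of Dixon allows for 4 arrays. Chance alone gives about 1 in 20 groups, and the share flagged was close to that rate. Eif2s3y, Xist and Ifitm3, which are among the 18, were added after their values were seen. The 316 genes did not include H2-Eb1 and Cd74, which are named above. In 11 of the 18 the array was GFP_High 3. Its intensities were 43.3 for H2-Aa (1126 to 1563 in the other GFP_High arrays), 24.6 for H2-Ab1 (594 to 846), 15.5 for Cyp2e1 (299 to 499), 887.0 for Ifitm3 (2117 to 2233), 924.7 for Kcne3 (1532 to 1604), 2137.5 for Lyz2 (4346 to 4503), 41.5 for Kdm5b (65.7 to 68.3) and 4.0 for Jchain (4.5 to 4.6). GFP_High 3 was highest in Cers5 (187.6, against 119.5 to 127), Numb (188.7, against 146 to 152) and Pmp22 (6.3, against 4.4 to 4.6). GFP_High 1 stood apart in Eif2s3y (201.8, against 3.5 to 5.2), Xist (28.8, against 3348 to 4119) and Mmp7 (121.0, against 96.0 to 96.8). GFP_High 4 stood apart in Itga3 (25.3, against 21.7 to 22.2) and, under the level of unexpressed genes, in Enpp3 (4.9, against 5.1) and Cyp2b10 (4.8, against 5.1), and GFP_High 2 in Farsb (732.5, against 758 to 762). Groups of 3 arrays were not examined in this way.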

How the results depend on the processing

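Of the 316 named genes that were checked, 285 kept their direction and their side of the threshold in all 16 alternatives. In 5056 pairs of a gene and an alternative, 46 calls (14 genes) were lost and 30 (15 genes) gained. Genes that gained a call in some alternative included Gata6, Cox5b, Gstp1, Psenen, Smad4, Canx, Sod1 and Actg1. Under the mean of probe sets, Hnf4a turned to 0.4339 and Sdha to 0.6641, both then called higher; the cause was not tested. As fitted, 3868 genes were higher and 4493 lower, of which 1056 and 1376 had a difference of at least 2. Median centring called 7061 higher, because it adds 0.29 to every difference. Testing every probe set gave 6272 higher and 6792 lower, as it has more items to call. An offset of 16 left 699 higher and 799 lower by at least 2, since it shrinks differences of dim genes. With each array left out in turn, 3497 to 3753 genes were higher and 4185 to 4386 lower, and 1025 to 1099 were higher and 1354 to 1400 lower by at least 2. The methods' t-test called 3177 higher and 3964 lower at its threshold of 0.01, and 3695 and 4363 after Benjamini-Hochberg adjustment. The other alternatives stayed within 1.5 times these counts. No paired analysis was possible because the labels carry no replicate numbers shared between Villus and GFP_High. With 3 and 4 arrays, differences near the level of unexpressed genes are limited by background signal.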
